A study of Homo sapiens with 16 samples.

Results

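The DYRK and CLK kinases, families with members that harmine and INDY inhibit, were followed as transcripts in quiescent U2OS cells. They were taken from the deposited table by gene symbol, and all 9 (5 DYRK and 4 CLK genes) of its 59081 genes were found and passed the filter on low counts with 20446 genes in all. U2OS is a human osteosarcoma line. Confluent cells were kept without serum for 48 h and received harmine hydrochloride (10 µM, in water), the matching amount of water, INDY (25 µM, in DMSO) or the matching amount of DMSO during the last 24 h, with 4 libraries in each group. Poly(A) RNA was sequenced once per library, so each value is a transcript level and not a protein level or a kinase activity. The study used both compounds to block DYRK1A and thereby the repressor complex DREAM. Dose, vehicle and compound differ together between the harmine and INDY groups.

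DYRK kinases phosphorylate a tyrosine in their own activation loop while they are being made, and afterwards phosphorylate serines and threonines of other proteins. DYRK1A phosphorylates LIN52, a step needed for the assembly of DREAM, which represses cell cycle genes in cells that have left the cycle. CLK kinases phosphorylate SR proteins, the serine- and arginine-rich factors of pre-mRNA splicing, and release them from storage in nuclear speckles. Harmine is a beta-carboline alkaloid that also blocks monoamine oxidase A, and INDY is a benzothiazole derivative. Both bind in the ATP pocket that the DYRK and CLK kinases share in form.

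The families share a fold, and their coding sequences can be told apart. A stretch of 30 coding bases around the autophosphorylated tyrosine is shown for the DYRK genes, from the GENCODE 44 transcripts on GRCh38, 5′ to 3′, with the 16 bases that are identical in all 5 in capitals:
DYRK1A: TACcagTAtATtCAgagtCGcTTtTAtcGg
DYRK1B: TACcagTAtATcCAgagcCGcTTcTAccGc
DYRK2: TACacgTAcATcCAgtcgCGtTTtTAccGg
DYRK3: TACacaTAtATcCAgtctCGgTTcTAcaGa
DYRK4: TACacgTAcATcCAaagcCGgTTcTAccGa
The CLK genes are also called LAMMER kinases after a conserved stretch of the catalytic domain, and the 30 bases that encode it are shown with the 18 identical bases in capitals:
CLK1: GAGCAttTaGcaATGATGGAaaggATtcTt
CLK2: GAGCAtcTaGccATGATGGAaaggATctTg
CLK3: GAGCAccTgGtgATGATGGAgaagATccTa
CLK4: GAGCAccTgGcaATGATGGAacgaATatTa
Even in these conserved stretches DYRK1A and DYRK1B, the closest pair of DYRK genes, differed at 5 of 30 bases, as did CLK1 and CLK2. The most distant DYRK pair, DYRK1A and DYRK3, differed at 11 bases and the most distant CLK pair, CLK1 and CLK3, at 9. No stretch of 100 nt in the transcripts of a member occurred in another member.

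Some sequence was shared with other genes. Of the 100-nt stretches of DYRK1B, 7.71% also occur in the overlapping gene ENSG00000291312, which the table does not list. The shares were 0.566% for DYRK4, 0.593% for CLK2 and 0.698% for CLK4. The pseudogenes CLK2P1 and CLK3P2 had no estimated count above 2 in any library. On the opposite strand, 5.24% of DYRK2 and 4.30% of CLK3 stretches lie in another transcript. The library kit keeps strand, and whether the counting used it is not given in the sources used here.

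Promoter windows from RefSeq (GRCh38.p14, 250 bases before to 50 after a transcript start) were at hand for 8 members, and 4 of them carried the palindrome CACGTG, the E-box bound by MYC and USF family proteins. That word stood in the windows of 8.78% of 27305 genes. CCATTTTG, the core of the element bound by YY1 as it reads on the reverse strand, was also in 4 of 8 members, against 1.96% of genes. Both words were searched on both strands and were chosen after the sequences had been seen, and a match is not a binding site. The windows of DYRK1A, DYRK1B, CLK2 and CLK4 are shown because they hold CACGTG. Each runs from 190 bases before the start to 30 bases from it onwards, 5′ to 3′ along the gene, with both words in capitals.
DYRK1A, chr21:37366583-37366802, plus strand: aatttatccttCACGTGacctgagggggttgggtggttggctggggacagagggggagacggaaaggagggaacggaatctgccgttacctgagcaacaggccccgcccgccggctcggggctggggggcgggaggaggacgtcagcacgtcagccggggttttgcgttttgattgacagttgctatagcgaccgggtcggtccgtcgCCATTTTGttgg
DYRK1B, chr19:39834133-39834352, minus strand: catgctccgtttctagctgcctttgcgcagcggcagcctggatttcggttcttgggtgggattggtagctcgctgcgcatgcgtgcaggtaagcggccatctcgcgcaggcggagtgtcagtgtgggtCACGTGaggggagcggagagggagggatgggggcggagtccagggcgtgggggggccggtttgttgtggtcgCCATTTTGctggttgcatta
CLK2, chr1:155273475-155273694, minus strand: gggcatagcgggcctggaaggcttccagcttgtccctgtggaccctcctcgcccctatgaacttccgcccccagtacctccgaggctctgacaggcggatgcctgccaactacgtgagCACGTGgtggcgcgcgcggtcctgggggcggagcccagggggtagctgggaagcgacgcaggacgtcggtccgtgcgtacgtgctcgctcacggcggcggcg
CLK4, chr5:178627021-178627240, minus strand: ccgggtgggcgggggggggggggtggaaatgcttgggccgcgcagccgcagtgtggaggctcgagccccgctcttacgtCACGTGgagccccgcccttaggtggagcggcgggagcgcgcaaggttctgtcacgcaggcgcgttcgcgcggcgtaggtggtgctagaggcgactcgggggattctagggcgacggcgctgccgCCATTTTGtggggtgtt
DYRK1A, DYRK1B and CLK4 hold both words in a single window and CLK2 holds the E-box alone, while CLK1 has CCATTTTG without CACGTG. The short cAMP-response word TGACG was in windows of 5 of 8 members (28.4% of genes) and the full palindrome TGACGTCA in none of the 8 (2.25% of genes). DYRK1A has 6 windows and DYRK4 has 5, so these genes had more chances to hold a word than a gene with 1.

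Library totals of estimated counts were 44301910 to 54070027 with harmine, 50376843 to 65889667 with water, 47612494 to 63417416 with INDY and 46139738 to 60993935 with DMSO. Levels are given as CPM, counts scaled to the library total, with TMM factors of 0.9825 to 1.022. Separate cultures are not named as the source of the 4 replicates, and the p-values therefore cover the spread among the libraries at hand, which could be technical only. Of 7 mesenchymal and osteoblast lineage markers, 5 were above 1 CPM in every library, with summed levels of 3530 to 3620 CPM with harmine, 2880 to 3090 with water, 3270 to 3670 with INDY and 3120 to 3340 with DMSO. TWIST1 was at 0 counts throughout and COL1A2 reached at most 0.194 CPM. None of 5 blood markers, 2 of 5 epithelial markers and 4 of 5 neuronal markers were above 1 CPM in every library. The sums of 5 epithelial markers, mostly CLDN4, were 30.3 to 33.4 CPM with harmine, 60.3 to 79.0 with water, 36.4 to 48.4 with INDY and 51.1 to 62.0 with DMSO, and the sums of 5 neuronal markers were 26.8 to 34.7 CPM over all libraries. The part of these markers in the results was not tested, and in a bulk sample fewer cells of a type cannot be told apart from less RNA per cell.

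With INDY the transcripts of all 9 kinases were higher than with DMSO. With harmine 3 were called higher and 1 lower than with water, near the shares over all genes. Differences were tested with edgeR's quasi-likelihood test with Benjamini-Hochberg adjustment over the 20446 genes, and a gene is called changed at an adjusted p under 0.01. INDY raised 9 of 9 members, where 33.2% of all genes tested were called higher. No member was lower with INDY by edgeR, DESeq2 or limma voom, also at an unadjusted p under 0.05 (33.4% of all genes were called lower by edgeR). The rise was at least 1.5-fold in 5 members, DYRK1B, DYRK3, DYRK4, CLK2 and CLK3 (14.3% of all genes). Harmine raised 3 members, DYRK1B, DYRK4 and CLK2 (24.9% of all genes), and lowered 1, CLK4 (22.8% of all genes), and the other 5 did not pass the test. Of the 4 genes with CACGTG in a window, 4 were higher with INDY, as were the other 5 kinases, and with harmine 2 were higher (DYRK1B and CLK2), 1 was lower (CLK4) and 1 did not pass (DYRK1A). In 9 genes the shares with harmine correspond to about as many calls as were seen with harmine in either direction. One of the rises with harmine was at least 1.5-fold, that of DYRK1B (8.41% of all genes). The libraries of the groups did not overlap for 9 members with INDY (33.4% of all genes in that direction), and with harmine for the 3 higher members (28.6%) and for DYRK3, which was lower (26.4%). The median log2 fold change of the 9 members was 0.64 with INDY and 0.06 with harmine, beside medians over all genes of -0.008 and 0.015.

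**Figure D1:**
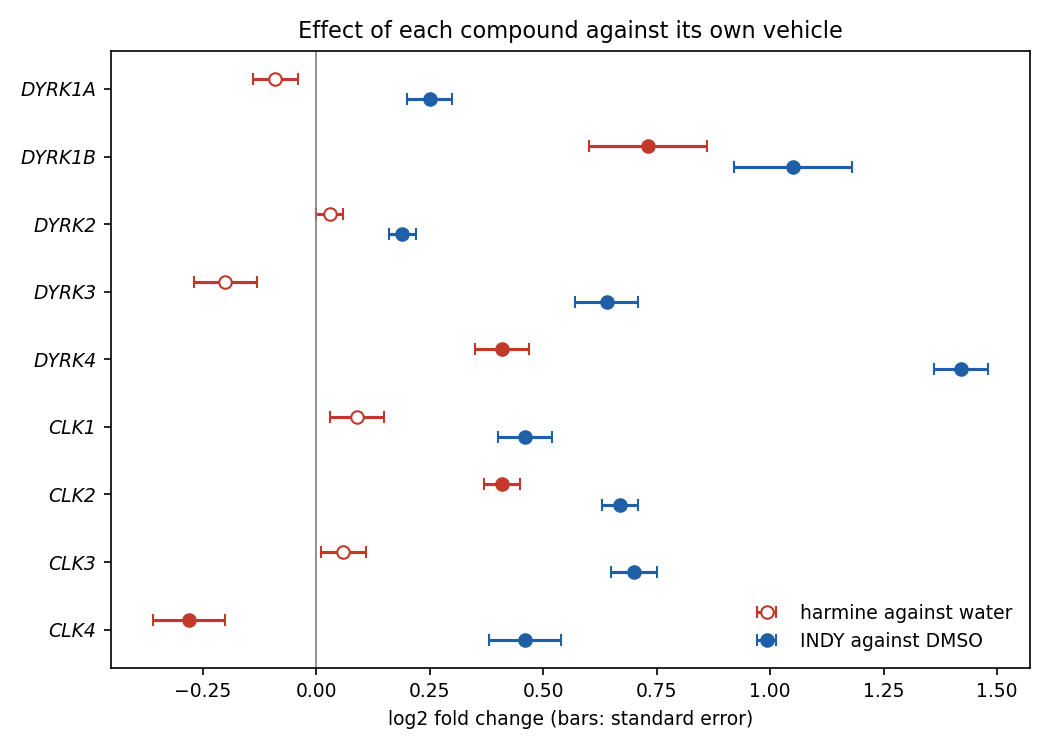
Log2 fold change of each DYRK and CLK transcript (x axis, bars are standard errors of the edgeR fit) for harmine against water in red and INDY against DMSO in blue, 4 libraries per group. Filled points passed an adjusted p of 0.01. All 9 blue points are filled and right of 0, from 0.19 for DYRK2 to 1.42 for DYRK4, and the red points run between -0.28 for CLK4 and 0.73 for DYRK1B.

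DYRK1A, the kinase that the study set out to inhibit (ENSG00000157540, chr21:37365573-37526358 on GRCh38 by GENCODE 44, as for all coordinates of genes here, plus strand, 12 exons in its selected transcript), was higher with INDY and had no called change with harmine. It had 19.2, 18, 17.3 and 17.4 CPM in the harmine libraries, against 19.5, 18.8, 18.3 and 20.0 CPM with water. These ranges overlap, and the log2 fold change of -0.09 ± 0.05 (SE) did not pass the test (adjusted p = 0.153). With INDY it had 22.3, 19.4, 22.4 and 19.6 CPM, against 17.7, 18.3, 17.7 and 17.0 CPM with DMSO. Every INDY library was above every DMSO library, with a log2 fold change of 0.25 ± 0.05 (adjusted p = 0.000372). INDY replicates 1 and 3 were higher than 2 and 4, and without those 2 libraries, a choice made after seeing the data, the log2 fold change was 0.15 and no longer passed (adjusted p = 0.0167).

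DYRK1B is the nearest relative of DYRK1A and is known for holding cells in quiescence (ENSG00000281320 as deposited, ENSG00000105204 in GENCODE 44, chr19:39825350-39834201, minus strand). It was among the 3 kinases that rose with both compounds, and it had the lowest CPM of the 9. The harmine libraries had 2.59, 3.09, 3.69 and 3.40 CPM and the water libraries 1.83, 2.02, 2.26 and 1.56 CPM, which rest on 113 to 188 counts with harmine and 89 to 152 with water. All 4 harmine libraries lay above the 4 water libraries, a log2 fold change of 0.73 ± 0.13 (adjusted p = 0.000104). The INDY libraries had 3.88, 4.71, 4.09 and 4.08 CPM and the DMSO libraries 1.74, 1.87, 2.12 and 2.41 CPM. The groups were again apart, with a log2 fold change of 1.05 ± 0.13, which is 2.07-fold (adjusted p = 6.58e-07). The overlap with a gene that the table does not list, given above, leaves the level of DYRK1B less certain than the others.

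DYRK2, which phosphorylates p53 and serves as the scaffold of a ubiquitin ligase, varied little between libraries (ENSG00000127334, chr12:67648338-67665406, plus strand). Its harmine libraries had 37.1, 37.0, 36.2 and 36.9 CPM, against 35.7, 36.9, 35.8 and 36.0 CPM with water. The ranges overlap and the log2 fold change was 0.03 ± 0.03 (adjusted p = 0.456). Its INDY libraries had 42.5, 41.5, 41.1 and 43.1 CPM, against 36.9, 36.2, 36.6 and 38.1 CPM with DMSO. The groups do not overlap, and the rise was the smallest of the 9 with INDY, a log2 fold change of 0.19 ± 0.03 (adjusted p = 1.36e-05).

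DYRK3, which dissolves stress granules and other condensates, lay below water with harmine, without a call, and above DMSO with INDY (ENSG00000143479, chr1:206635536-206684419, plus strand). With harmine it had 69.4, 67.8, 68.1 and 68.0 CPM, against 81.6, 75.4, 72.4 and 83.9 CPM with water. Every harmine library was below every water library (26.4% of all genes tested), and yet the log2 fold change of -0.20 ± 0.07 missed the threshold (adjusted p = 0.0177). Water replicates 1 and 4 were the highest, and the call depended on single libraries, since without water replicate 3 the log2 fold change was -0.25 (adjusted p = 0.00677). INDY libraries are not among those compared here but enter the scaling and the shared estimate of spread, and without INDY replicate 2, 3 or 4 it was -0.21 with an adjusted p of 0.00437, 0.00159 and 0.00962. With INDY it had 115, 95.1, 127 and 99.4 CPM, against 72.1, 70.4, 69.5 and 68.3 CPM with DMSO. INDY replicates 1 and 3 were again the highest, all 4 INDY libraries were above DMSO, and the log2 fold change was 0.64 ± 0.07 (adjusted p = 6.88e-08).

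DYRK4, the least studied DYRK kinase, had the largest change of the set (ENSG00000010219, chr12:4562208-4615302, plus strand). With harmine it had 31.0, 28.7, 30.3 and 28.9 CPM, against 22.3, 22.8, 21.6 and 22.4 CPM with water. With INDY it had 59.7, 53.9, 68.2 and 54.9 CPM, against 23.0, 21.6, 21.8 and 22.1 CPM with DMSO. Both treated groups lay above their vehicle groups without overlap, and the vehicle groups were alike. The log2 fold change was 0.41 ± 0.06 with harmine (adjusted p = 7.79e-06) and 1.42 ± 0.06 with INDY, which is 2.67-fold (adjusted p = 1.5e-13). A read-through gene that overlaps DYRK4, ENSG00000272921, had 0 to 50 counts, against 1028 to 4250 counts for DYRK4 itself.

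**Figure D2:**
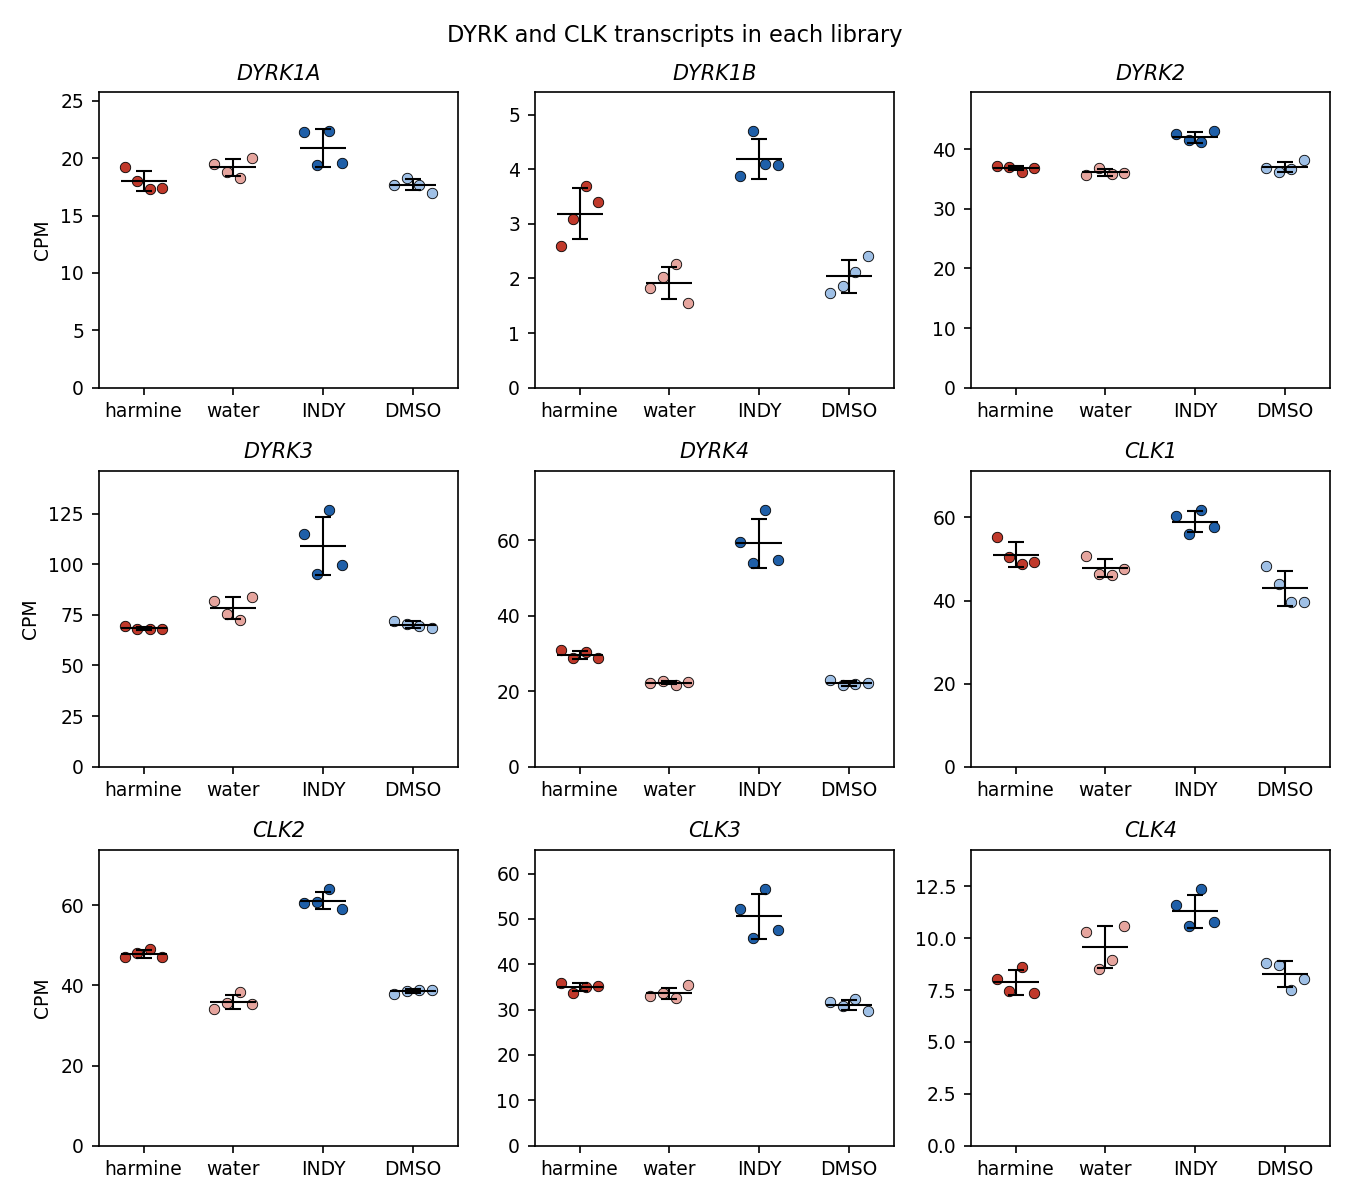
TMM-normalized CPM (y axis from 0, a scale of its own for each gene) of the 9 kinases in each of the 16 libraries, with the mean and SD of each group of 4 as black bars. DYRK4 stands out with INDY between 53.9 and 68.2 CPM, above all harmine libraries (28.7 to 31.0 CPM). CLK4 and DYRK3 have their highest means with INDY, and their harmine libraries lie below the water means and overlap the DMSO libraries.

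CLK1 and CLK2, which phosphorylate SR proteins, were both higher with INDY, and CLK2 was higher with harmine too. CLK1 (ENSG00000013441, chr2:200853009-200864691, minus strand) had 55.4, 50.5, 48.8 and 49.3 CPM with harmine, against 50.8, 46.5, 46.1 and 47.7 CPM with water. These ranges overlap, and the log2 fold change of 0.09 ± 0.06 did not pass (adjusted p = 0.172). CLK1 had 60.3, 56.0, 61.9 and 57.8 CPM with INDY, against 48.2, 43.9, 39.7 and 39.6 CPM with DMSO, apart by a log2 fold change of 0.46 ± 0.06 (adjusted p = 7.66e-07). CLK2 (ENSG00000261893 as deposited, ENSG00000176444 in GENCODE 44, chr1:155262868-155278491, minus strand) had 47.0, 48.0, 49.1 and 47.1 CPM with harmine, against 34.2, 35.6, 38.3 and 35.4 CPM with water. CLK2 had 60.7, 60.8, 64.2 and 59.2 CPM with INDY, against 37.9, 38.7, 38.8 and 38.9 CPM with DMSO. For CLK2 neither pair of groups overlaps, with log2 fold changes of 0.41 ± 0.04 with harmine (adjusted p = 1.42e-08) and 0.67 ± 0.04 with INDY (adjusted p = 5.29e-12).

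CLK3 and CLK4, which also phosphorylate SR proteins, were both higher with INDY and parted with harmine in their calls. CLK3 (ENSG00000179335, chr15:74598500-74645414, plus strand) had 35.9, 33.7, 35.0 and 35.3 CPM with harmine, against 33.0, 33.7, 32.5 and 35.4 CPM with water. These values overlap (log2 fold change 0.06 ± 0.05, adjusted p = 0.386). With INDY CLK3 had 52.3, 45.8, 56.7 and 47.5 CPM, against 31.6, 30.7, 32.3 and 29.8 CPM with DMSO. The INDY libraries were all higher, with replicates 1 and 3 on top, and the log2 fold change of 0.70 ± 0.05 was the third largest with INDY (adjusted p = 8.95e-10).

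CLK4 (ENSG00000113240, chr5:178602664-178630615, minus strand) was lower with harmine and higher with INDY. It had 8.03, 7.47, 8.63 and 7.35 CPM with harmine, against 10.3, 8.53, 8.95 and 10.6 CPM with water. The harmine replicate at 8.63 CPM lay above the lowest water replicate, so the groups touch, and the log2 fold change was -0.28 ± 0.08 (adjusted p = 0.00557). This call was lost without water replicate 1 (-0.25, adjusted p = 0.0222), water replicate 4 (-0.23, adjusted p = 0.0235), harmine replicate 2 (-0.27, adjusted p = 0.016) or harmine replicate 4 (-0.27, adjusted p = 0.0173). With INDY CLK4 had 11.6, 10.6, 12.4 and 10.8 CPM, against 8.82, 8.71, 7.50 and 8.05 CPM with DMSO. These groups were apart, with a log2 fold change of 0.46 ± 0.08 (adjusted p = 4.06e-05).

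The effects of the compounds differed for 8 of the 9 kinases, in each case toward lower values for harmine (26.4% of all genes tested were called in that direction). No member was called higher for harmine, also not by DESeq2 or limma voom or at an unadjusted p under 0.05 (28.1% of all genes by edgeR). The difference, the log2 fold change with harmine minus that with INDY, was -1.0 ± 0.08 for DYRK4 (adjusted p = 6.24e-09) and -0.84 ± 0.09 for DYRK3 (adjusted p = 3.99e-07). It was -0.74 ± 0.11 for CLK4 (adjusted p = 1.46e-05) and -0.64 ± 0.08 for CLK3 (adjusted p = 6.74e-07). For CLK4, DYRK3 and DYRK1A the fold changes with the compounds have opposite signs, of which those of DYRK3 and DYRK1A with harmine did not pass the test, while DYRK4 was higher with both and to a smaller extent with harmine. The remaining differences were -0.37 for CLK1 (adjusted p = 0.000679), -0.34 for DYRK1A (adjusted p = 0.000682), -0.25 for CLK2 (adjusted p = 0.000224) and -0.16 for DYRK2 (adjusted p = 0.00262). DYRK1B was the exception, at -0.32 ± 0.19 (adjusted p = 0.144). Since dose and vehicle change with the compound, the difference does not separate them.

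Between the vehicles, no member was called changed by edgeR for DMSO against water, where 4.29% of all genes were called in either direction. The log2 fold changes lay between -0.21 for CLK4 and 0.10 for CLK2, with adjusted p of 0.0705 to 0.942. At an unadjusted p under 0.05 there were 5 members by edgeR, 4 by DESeq2 and 5 by limma voom. The share of all genes at that looser threshold is not given here, so these counts cannot be set against it. DYRK1A, DYRK3 and CLK3 had every DMSO library below every water library, 3 of 9 members, where 10.2% of all genes had this order. These are the same libraries that serve as controls above, so a lower DMSO or a higher water level enters the fold change of the compound too.

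The order of the 4 groups was fixed at one end, since the mean was highest with INDY for all 9 kinases. The next group below INDY was harmine for DYRK1B, DYRK4, CLK1, CLK2 and CLK3. INDY and harmine libraries did not overlap for any of the 9 kinases, though for DYRK1A the margin was 19.4 against 19.2 CPM. The share of all genes with this order is not given here. Below INDY came water for DYRK1A, DYRK3 and CLK4, and DMSO for DYRK2. DYRK1A averaged 18 ± 0.869 CPM with harmine, 19.2 ± 0.748 with water, 20.9 ± 1.64 with INDY and 17.7 ± 0.501 with DMSO (SD, n = 4 each), and groups next to each other in this order of means overlapped. DYRK4 averaged 29.7 ± 1.1 CPM with harmine, 22.3 ± 0.494 with water, 59.2 ± 6.56 with INDY and 22.1 ± 0.597 with DMSO (SD, n = 4 each), and the vehicle groups alone overlapped.

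**Figure D3:**
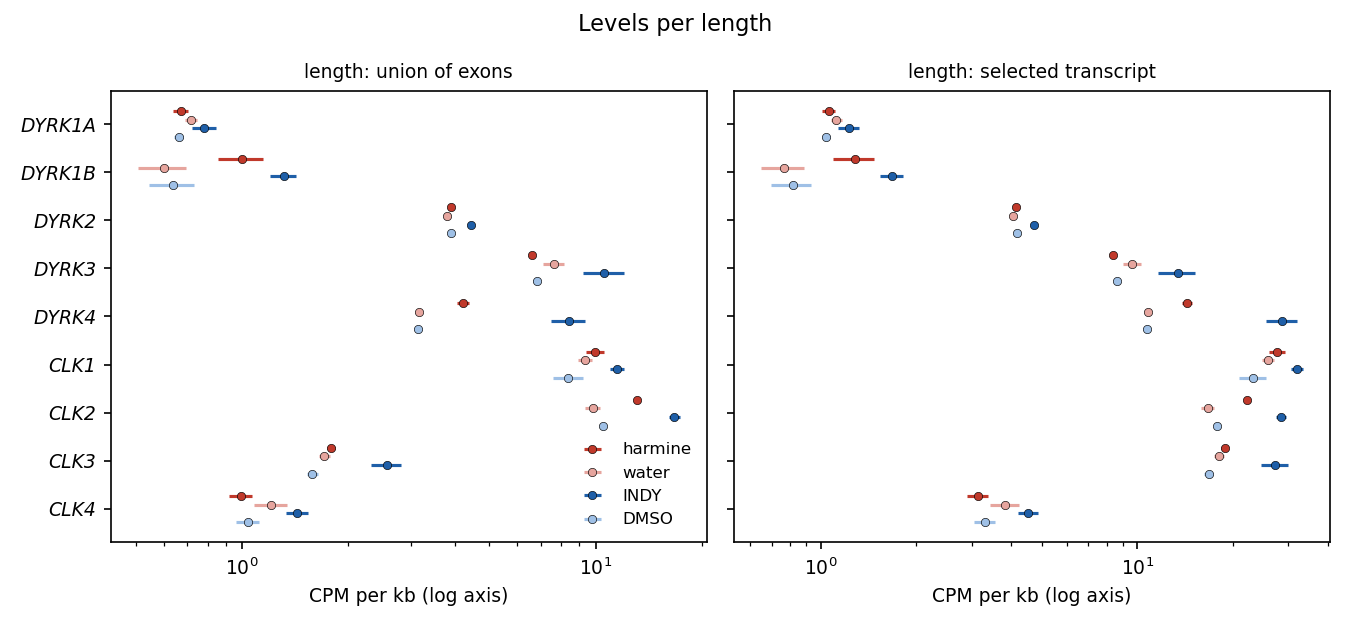
CPM per kb (log axis) of the 9 kinases in the 4 groups, as mean and SD of 4 libraries, with length taken as the union of all annotated exons on the left and as the selected (MANE Select or canonical) transcript on the right. DYRK1A and DYRK1B are at the low end in both panels, and CLK3 shifts by the most, between 1.71 and 18.1 CPM per kb with water.

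Levels between genes can be set side by side only per length. With the union of exons as length, CLK2 was at the top in every group, at 13.1 CPM per kb with harmine, 9.81 with water, 16.7 with INDY and 10.5 with DMSO, followed by CLK1 and DYRK3. DYRK1A was at 0.672 CPM per kb with harmine, 0.716 with water, 0.782 with INDY and 0.661 with DMSO, and DYRK1B at 1.00 with harmine, 0.601 with water, 1.31 with INDY and 0.638 with DMSO. DYRK1A, the named target of both compounds, was thus among the lowest of the 9 in transcript per length. The order depended on the length used. With the selected transcript, CLK1 was at the top in every group (25.9 CPM per kb with water) and CLK3 came second with water at 18.1, against sixth at 1.71 with the union. The 9 union lengths are 3192 to 26763 nt and the selected transcripts 1847 to 17024 nt, and the gene-level table does not say which transcripts were present.

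Across the 16 libraries the members' log2 CPM moved together to an unequal degree. Pearson's r over libraries lay between 0.30 (DYRK1B and CLK4) and 0.97 (DYRK4 and CLK3). DYRK4 and CLK2 had an r of 0.96, DYRK1B and CLK2 of 0.94, and DYRK3 had 0.93 with CLK3 and 0.92 with both CLK4 and DYRK1A. The points share the 4 group means and the same libraries, so that r also carries the treatment pattern. DYRK1A and DYRK1B, the closest DYRK pair in the coding stretches shown, had an r of 0.32. CLK1 and CLK2, the closest CLK pair with as many differing bases, had an r of 0.78. Within the INDY group, replicates 1 and 3 lay above replicates 2 and 4 for DYRK1A, DYRK3, DYRK4, CLK1, CLK3 and CLK4, and not for DYRK1B, DYRK2 and CLK2. Without INDY replicates 1 and 3, 8 members remained higher with INDY, and DYRK4 had a log2 fold change of 1.30 (adjusted p = 1.18e-14). Within the water group, replicates 1 and 4 were above 2 and 3 for DYRK1A, DYRK3, CLK1 and CLK4 and below them for DYRK1B and CLK2. The shares of all genes with these orders of INDY and water replicates are not given here. The orders can therefore not be called particular to the kinases. Without water replicates 1 and 4, also chosen after seeing the data, DYRK3 had a log2 fold change of -0.11 with harmine (adjusted p = 0.25) and CLK4 of -0.15 (adjusted p = 0.155), while DYRK1B, DYRK4 and CLK2 stayed called with 0.58, 0.42 and 0.37.

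Among 13026 named genes with a mean log2 CPM of at least 1, the gene whose pattern over the 16 libraries was most like that of each kinase was picked by the highest Pearson r of log2 CPM. DYRK1A was most like KHDC1 (r = 0.951), CDYL2 (0.949) and SETD2 (0.940), a histone methyltransferase. SETD2 had log2 fold changes of -0.04 with harmine (adjusted p = 0.431) and 0.27 with INDY (adjusted p = 8.52e-06), close to those of DYRK1A. DYRK1B was most like SF3A2, a subunit of the splicing factor SF3a (r = 0.970), and DYRK2 most like RAD21, a cohesin subunit (0.978). DYRK3 was most like KEAP1, the adaptor that marks NRF2 for degradation (r = 0.992), with log2 fold changes of -0.14 with harmine (adjusted p = 0.0288) and 0.40 with INDY (adjusted p = 1.28e-06). DYRK4 was most like SAP30L, a subunit of histone deacetylase complexes, with the highest r of the set (0.997), and SAP30L rose with harmine (0.35, adjusted p = 7.8e-06) and INDY (1.25, adjusted p = 1.13e-13). CLK1 was most like PDGFB, a platelet-derived growth factor chain (r = 0.963), CLK2 like WASF2, an actin regulator (0.991), CLK3 like NEURL4 (0.989) and CLK4 like CHRNA4, a nicotinic receptor subunit (0.969). These r values describe 16 libraries in 4 groups and were the highest of a search.

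The genes around the kinases were read from lists of related kinases, partners and substrates, and none of the lists moved one way with INDY as the 9 kinases did. The 8 related kinases are the HIPK kinases, PRPF4B and the SR protein kinases SRPK1 to SRPK3. With harmine 1 rose (24.9% of all genes tested), 4 fell (22.8%) and 3 did not pass. With INDY 4 rose (33.2% of all genes tested), 2 fell (33.4%) and 2 did not pass. HIPK2, a p53 kinase, fell with both compounds, with 38.7, 43.1, 39.2 and 39.8 CPM with harmine against 53.9, 51.6, 48.4 and 60.4 CPM with water, and 39.4, 34.3, 34.1 and 30.8 CPM with INDY against 51.8, 45.9, 48.4 and 45.9 CPM with DMSO. The log2 fold changes of HIPK2 were -0.41 with harmine (adjusted p = 4.64e-05) and -0.47 with INDY (adjusted p = 6.07e-06), and neither pair of groups overlaps. HIPK3 fell with harmine (-0.29, adjusted p = 0.00109) and rose with INDY (0.41, adjusted p = 1.37e-05). HIPK1 rose with harmine (0.15, adjusted p = 0.00118) and with INDY (0.26, adjusted p = 1.32e-06). SRPK2 fell with harmine (-0.15, adjusted p = 0.00114) and rose with INDY (0.16, adjusted p = 0.00031). PRPF4B fell with harmine (-0.13, adjusted p = 0.00734), and its value with INDY was 0.05 (adjusted p = 0.258). The call of HIPK1 with harmine was lost without water replicate 2 (adjusted p = 0.0142), water replicate 3 (0.0124) or harmine replicate 1 (0.0113). The call of PRPF4B was lost without water replicate 1 (adjusted p = 0.0287) or 4 (0.0159), harmine replicate 4 (0.0194), or DMSO replicate 2 (0.0106) or 4 (0.0103). HIPK4 fell with INDY (-1.38, adjusted p = 0.000351), on only 5 to 20 counts with INDY and 18 to 48 with DMSO.

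**Figure D4:**
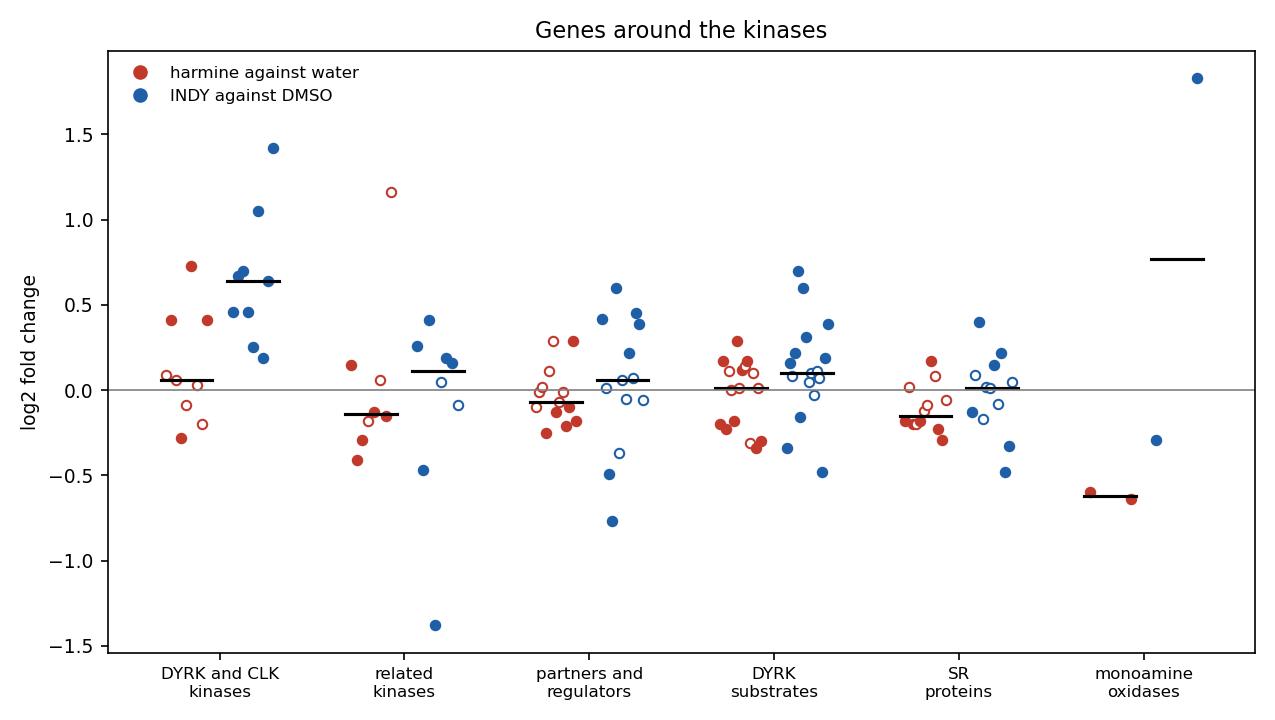
Log2 fold change (y axis) of every tested gene of 6 lists, harmine against water in red and INDY against DMSO in blue, with filled points past an adjusted p of 0.01 and a black bar at the list's median. The 9 blue points of the kinases are all above 0 with a median of 0.64, while the blue points of the related kinases, partners, DYRK substrates and SR proteins lie on both sides of 0 with medians of 0.11, 0.06, 0.10 and 0.01.

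Of 13 partners and regulators of DYRK kinases, 1 rose (24.9% of all genes tested) and 5 fell (22.8%) with harmine. With INDY 5 rose (33.2% of all genes tested) and 2 fell (33.4%). FAM117B, found in DYRK1A complexes, fell with harmine (-0.25, adjusted p = 0.00122) and more with INDY (-0.77, adjusted p = 8.24e-10). TROAP, another protein found with DYRK1A, rose with harmine (0.29, adjusted p = 7.81e-05) and INDY (0.39, adjusted p = 1.28e-06). SPRED1, a Ras pathway inhibitor, fell with harmine (-0.21, adjusted p = 0.000885), and its value with INDY was 0.07 (adjusted p = 0.197). FAM53C, a DYRK1A-binding protein, had 119 ± 9.58 CPM with INDY and 78.3 ± 0.903 CPM with DMSO (SD, n = 4 each), a log2 fold change of 0.60 (adjusted p = 2.31e-10), and with harmine it was 0.11 (adjusted p = 0.0334). DDB1, part of the ubiquitin ligase that DYRK2 scaffolds, fell with INDY (-0.49, adjusted p = 2.12e-08), and its value with harmine was 0.02 (adjusted p = 0.722). Of DCAF7, the main DYRK1A adaptor, the log2 fold changes were -0.01 with harmine (adjusted p = 0.66) and 0.01 with INDY (adjusted p = 0.651).

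Of 16 DYRK substrates, 4 rose (24.9% of all genes tested) and 5 fell (22.8%) with harmine. With INDY 7 rose (33.2% of all genes tested) and 3 fell (33.4%). JUN, a DYRK2 substrate and an AP-1 subunit, rose with both, by log2 fold changes of 0.29 with harmine (adjusted p = 7.97e-05) and 0.60 with INDY (adjusted p = 3.48e-09). NFATC4, a transcription factor that DYRK1A keeps out of the nucleus, fell with both, at -0.34 with harmine (adjusted p = 6.18e-06) and -0.48 with INDY (adjusted p = 3.8e-08). SIRT1, a deacetylase, fell with harmine (-0.30, adjusted p = 0.000191) and rose with INDY (0.39, adjusted p = 5.57e-06). EIF2B5, a translation initiation factor subunit, had 101 ± 2.63 CPM with INDY and 62.2 ± 3.47 CPM with DMSO (SD, n = 4 each), a log2 fold change of 0.70 (adjusted p = 8.33e-12), and with harmine its value was 0.999-fold (adjusted p = 0.97). LIN52, the DYRK1A substrate in DREAM, had log2 fold changes of 0.12 with harmine (adjusted p = 0.00773) and 0.05 with INDY (adjusted p = 0.23). The call of LIN52 with harmine was lost in 16 of 26 alternatives, which include leaving out water replicate 2, 3 or 4, any harmine replicate, DMSO replicate 3 or INDY replicate 2, 3 or 4 (adjusted p of 0.015 to 0.0538).

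Of 12 genes for SR and related splicing proteins, substrates of the CLK kinases, 1 rose (24.9% of all genes tested) and 5 fell (22.8%) with harmine. With INDY 3 rose (33.2% of all genes tested) and 3 fell (33.4%). SRSF7 fell with both, at -0.23 with harmine (adjusted p = 0.000522) and -0.48 with INDY (adjusted p = 4.15e-08). SRSF8 also fell with both, at -0.29 with harmine (adjusted p = 7.7e-07) and -0.33 with INDY (adjusted p = 7.16e-08). SRSF11 fell with harmine (-0.20, adjusted p = 0.000703) and rose with INDY (0.40, adjusted p = 1.4e-07). The genes of the monoamine oxidases, of which harmine is known to block MAOA, both fell with harmine, and with INDY they changed in opposite directions. MAOA had 9.89, 8.01, 8.16 and 8.54 CPM with harmine against 12.0, 13.1, 12.7 and 14.3 CPM with water, and fell with harmine (-0.60, adjusted p = 6.75e-07) and with INDY (-0.29, adjusted p = 0.00082). MAOB had 1.21, 1.13, 0.981 and 1.43 CPM with harmine against 1.48, 1.95, 1.88 and 2.07 CPM with water, a log2 fold change of -0.64 (adjusted p = 0.00204, and 0.0125 with limma voom). With INDY MAOB had 7.14, 5.26, 8.37 and 6.41 CPM against 2.13, 1.85, 1.90 and 1.77 CPM with DMSO, and rose 3.55-fold (adjusted p = 6.62e-10). All libraries of each pair of groups were apart for MAOB, and its effects differed between the compounds by -2.47 (adjusted p = 9.49e-09).

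Of the 18 protein-coding genes that lie nearest to the 9 kinases, 1 on each side, 13 passed the filter on low counts. With INDY 6 of the 13 rose as the kinases did (33.2% of all genes tested were called higher), 4 fell (33.4%) and 3 did not pass, and with harmine 2 rose (24.9%), 2 fell (22.8%) and 9 did not pass. The 5 that were not tested, LEUTX beside DYRK1B, IFNG beside DYRK2, PKLR beside CLK2, and COL23A1 and MSANTD5 beside CLK4, had at most 15 counts in any library.

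DYRK4 lies 2160 bp from RAD51AP1 and 205 bp from AKAP3. RAD51AP1 rose with harmine (0.29, adjusted p = 0.000234), as DYRK4 did, and had -0.16 with INDY (adjusted p = 0.0164). AKAP3 fell with INDY by 1.27 on the log2 scale (adjusted p = 5.47e-10), where DYRK4 rose 2.67-fold, and had 0.20 with harmine (adjusted p = 0.0487). FBL lies 256 bp from DYRK1B and had log2 fold changes of 0.04 with harmine (adjusted p = 0.4) and -0.10 with INDY (adjusted p = 0.0154). CAND1, 328384 bp from DYRK2, fell with harmine (-0.20, adjusted p = 0.000151) and rose with INDY (0.28, adjusted p = 1.81e-06). MAPKAPK2, 485 bp from DYRK3, rose with INDY (0.22, adjusted p = 5.35e-05), and EIF2D on the other side of DYRK3 fell (-0.67, adjusted p = 7.36e-12).

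ARID3B lies 368 bp from CLK3 on the same strand. ARID3B was at -0.36 with harmine (adjusted p = 0.021), and it rose with INDY (1.26, adjusted p = 2.05e-08). CYP1A1, 74127 bp away on the other side of CLK3, fell with harmine (-0.72, adjusted p = 1.33e-09) and INDY (-0.31, adjusted p = 2.12e-05). EDC3, which overlaps CLK3 on the opposite strand and is not counted among the nearest genes, rose with harmine (0.15, adjusted p = 0.00314) and INDY (0.23, adjusted p = 4.19e-05). SCAMP3, 437 bp from CLK2, had -0.01 with harmine (adjusted p = 0.874), where CLK2 rose, and it rose with INDY (0.31, adjusted p = 1.21e-07). Next to CLK1, PPIL3 fell with INDY (-0.76, adjusted p = 1.2e-08) and BZW1 rose (0.30, adjusted p = 8.88e-08).

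KCNJ6, a potassium channel gene, is the next protein-coding gene above DYRK1A, 81014 bp away. It had 21 to 41 counts with harmine and 0 to 5 with water, and 0 to 2 counts with both INDY and DMSO. The change of KCNJ6 with harmine passed the test (adjusted p = 1.05e-06), whereas DYRK1A had a log2 fold change of -0.09 with harmine (adjusted p = 0.153). VPS26C, on the other side of DYRK1A, had a log2 fold change of -0.03 with harmine (adjusted p = 0.5) and rose with INDY (0.14, adjusted p = 0.00461), as DYRK1A did. The call of VPS26C was lost without DMSO replicate 2 (adjusted p = 0.0128), DMSO replicate 3 (0.0155), DMSO replicate 4 (0.0199) or INDY replicate 3 (0.0165). The call of EDC3 with harmine was lost without water replicate 1 (adjusted p = 0.0118), harmine replicate 3 (0.0211) or harmine replicate 4 (0.0196).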

How the data were processed

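Poly(A) RNA of 16 libraries in 4 groups was measured. The authors made estimated counts with Salmon 1.1 against GRCh38, per the labels, and deposited them as 1 value for each gene and library. These counts were rounded to whole numbers, and 20446 of 37914 genes with any count passed filterByExpr. One model of the 4 groups was fitted with TMM factors and the quasi-likelihood test of edgeR 4.0.16 (R 4.3.3), and the threshold was an adjusted p of 0.01. The submitters' processing notes name edgeR 3.28.1. The biological coefficient of variation was 0.0561. Log2 CPM for correlations used a prior count of 2. DYRK1B and CLK2 carry other Ensembl identifiers in the table than in GENCODE 44 and were matched by symbol.

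The kinases and the lists of related genes were chosen with earlier results of these data known. Named were all 9 kinases, the up to 3 largest called changes per list and compound (every called gene where 5 or fewer were called), the gene with the most similar pattern (3 for DYRK1A) and the nearest genes on each side. LIN52 and DCAF7 were added after their values were seen. Alternatives were DESeq2 1.42.0, limma voom (limma 3.58.1), other scaling, filters, thresholds and lengths, a replicate block, and leaving out libraries.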

Additional observations from a re-analysis of the deposited data

Results flagged for a closer look

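In 36 groups of 4 libraries (9 kinases in 4 groups) 2 libraries stood apart from the rest of their group, where about 1 group in 20 does so by chance. DYRK2 had 36.2 CPM in harmine replicate 3, below 36.9 to 37.1 CPM in the other harmine libraries. CLK2 had 37.9 CPM in DMSO replicate 1, below 38.7 to 38.9 CPM in the other DMSO libraries.

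The effect of harmine minus the effect of INDY, tested within the edgeR fit with Benjamini-Hochberg adjustment, differed from 0 for 8 kinases. It was -1.0 for DYRK4, -0.84 for DYRK3, -0.74 for CLK4, -0.64 for CLK3, -0.37 for CLK1, -0.34 for DYRK1A, -0.25 for CLK2 and -0.16 for DYRK2 on the log2 scale. Of 51 genes of the other lists, 19 had a negative difference that passed the test (26.4% of all genes tested) and 6 a positive one (28.1%). Among those described with the compounds it was -2.47 for MAOB, -0.70 for HIPK3 and EIF2B5, -0.69 for SIRT1, -0.60 for SRSF11, -0.49 for FAM53C, -0.31 for JUN and SRPK2, -0.28 for SPRED1 and -0.18 for PRPF4B. It was positive for FAM117B at 0.52, DDB1 at 0.51 and SRSF7 at 0.25. In the remaining genes that passed it was -0.55 for SPRED2, -0.52 for DCAF1, -0.31 for CCND3, -0.30 for KATNA1, -0.23 for SIAH2 and SRSF4, -0.19 for LZTS2 and SRSF2 and -0.18 for SF3B1, and 0.66 for LZTS1, 0.25 for SRSF5 and 0.20 for NFATC1.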

How the results depend on the processing

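Of 936 values of the 9 kinases under alternatives, 904 kept their direction and their side of the threshold, and the cause of the others was not tested. The count of kinases lower with harmine, 1 as reported, was 2 with upper-quartile factors, with no filter on low counts, with only the 8 libraries compared, with DESeq2 and at an adjusted p under 0.05, as DYRK3 joined CLK4. It was 0 to 2 when a single library was left out and 0 without water replicates 1 and 4. With a minimum of 1.5-fold the counts became 1 higher and 0 lower with harmine, 5 higher with INDY and 4 lower for the difference. For the difference, the share of all genes at that minimum is not given here. Without a filter on low counts DYRK2 lost its difference (-0.16, adjusted p = 0.0207). For DMSO against water, where no kinase was called, DYRK1B was -0.078 without water replicates 1 and 4 and -0.011 to 0.169 with single libraries left out, and DYRK4 was -0.028 to 0.003.

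With the length of the selected transcript, levels with water were 1.12 CPM per kb for DYRK1A, 0.768 for DYRK1B, 4.06 for DYRK2, 9.64 for DYRK3, 10.8 for DYRK4, 25.9 for CLK1, 16.7 for CLK2, 18.1 for CLK3 and 3.83 for CLK4. Deviations from group means over all genes tested had correlations of -0.053 to 0.087 between same-numbered libraries of a compound and its vehicle. Whether replicate numbers mark a shared batch was not tested. With a replicate block 3 kinases were higher and 1 lower with harmine, 9 higher with INDY and 8 lower for the difference.

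Of 55 results for other named genes, 44 kept their call in every alternative that tested them but the 1.5-fold minimum, and none reversed. HIPK4 with INDY and KCNJ6 with harmine were tested in 25 of 26 alternatives. A filter of at least 10 counts in every library leaves both genes out. Without water replicates 1 and 4, HIPK3, SRPK2, PRPF4B, SPRED1, SRSF11, LIN52 and EDC3 lost their calls with harmine, and without INDY replicates 1 and 3 MAOA and VPS26C lost their calls with INDY. With upper-quartile factors, with no filter on low counts and with only the 8 libraries compared, VPS26C lost its call with INDY and LIN52 with harmine, as did EDC3 with harmine with the last 2 of these. DYRK1B, with as few as 89 counts in a library, is the kinase that depth limits most.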
